A study of Homo sapiens with 24 samples.

Results

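The members described here are 10 genes of the Hippo pathway and its output: the upstream regulator NF2, the kinases LATS1 and LATS2, the coactivators YAP1 and WWTR1, the DNA-binding partners TEAD1 and TEAD4, and the target genes CTGF, CYR61 and AMOTL2. Every array probe whose gene name was one of these was taken, which gave 20 of the 41000 gene probes (10 of 30982 gene names), and all 20 passed the filter on dim probes, as 30316 of the 41000 did. WWTR1 is the gene that Hippo papers call TAZ, and the probe named TAZ, which reports tafazzin, was left out. The group was chosen by a measured value, the lower LATS2 ratio after protons in these data, so the proton values and counts are given as a description from which no test is read, and tests are given for the Si306 values alone.

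The cells were U87 MG, an established human glioblastoma line. RNA was collected 24 hours after proton therapy (PT) at 2 Gy or 10 Gy, with or without 10 µM Si306, a small-molecule inhibitor of SRC-family tyrosine kinases. Each two-colour array held treated RNA in the Cy5 dye and control RNA in Cy3, so a log2 Cy5/Cy3 ratio above 0 means a higher signal after treatment. There were 4 configurations: 2 Gy against untreated cells, 10 Gy against untreated cells, Si306 with 2 Gy against 2 Gy alone, and Si306 with 10 Gy against 10 Gy alone. The Si306 configurations therefore carried protons on both sides, and no array compared Si306 with protons against untreated cells. The 24 deposited samples are labelled 6 biological replicates per configuration, but the file headers place them on 8 arrays, each scanned 3 times, so n is 2 arrays per configuration. Nothing in the labels ties the arrays to separate cultures, and p-values measure only the spread between arrays, which may be technical. The dyes were never swapped, so a dye effect specific to a probe cannot be told apart from treatment, except in a difference between 2 doses on the same slide. Both proton configurations share the untreated RNA by label, and the Cy3 RNA of the Si306 arrays is by label the Cy5 RNA of the proton arrays. Differences were fitted with limma over all probes, an adjusted p (Benjamini-Hochberg over all probes) under 0.05 counted as passing, and SE is the model's standard error. Ratios were normalised by loess, a curve over intensity within each scan, and centring each scan on its median in its place moved the median of all tested probes by 0.24, 0.21, 0.36 and 0.21 log2 units in the 4 configurations. Values under median centring are given relative to that median.

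The arrays stood apart in ways that touch these genes. One scan labelled 2 Gy lay on a 10 Gy array, one labelled 10 Gy lay on a 2 Gy array, and both were left out, so 22 scans were used. An alternative placed them by label, which alters the model's spread but not the Si306 means, as both lie on proton arrays. The standard deviation (SD) of the log2 ratio difference between those scans and the other scans of their own array was 0.0770 and 0.0756, close to the median of 0.0736 between scans of the same array and below the 0.178 and 0.171 from the arrays of their label. All proton arrays were on slide 1 and all Si306 arrays on slide 2. On both slides the 2 Gy arrays were at positions 1 and 4 and the 10 Gy arrays at positions 2 and 3. Dose and position on the slide therefore cannot be told apart. Log2 levels averaged over both dyes correlated across 30316 probes at r = 0.996 to 0.999 within a slide and at 0.877 to 0.883 between slides, although 2 Gy and 10 Gy RNA by label was present on both. After the median was taken off, 25.6% of probes differed between slides by over 1 log2 unit. Slide, hybridisation and cell culture cannot be told apart here. The U87 markers VIM, CD44, FN1, NES and TNC were well above background in the control channel of all 8 arrays, CHI3L1 only on the 4 arrays of slide 1. Of other cell types' markers, the glial GFAP, the immune CD14 and the neuronal SYT1 were above it on all 8 arrays in both channels, at control signals of at most 125, 85.8 and 139, against up to 87662 for VIM. The epithelial TACSTD1 (EPCAM) was above it on 6 arrays in the control channel, with a signal of up to 568, CD3E of T cells on 4 and OLIG2 on 3. The endothelial PECAM1 was above it on slide 2 only and the neuronal SNAP25 on slide 1 only. SOX10 and CDH5 were not above it in the control channel of any array, and PTPRC of leukocytes, CDH1 of epithelium and HBB of erythroid cells in neither channel. The part of these cell types in the results was not tested.

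The Hippo pathway is a kinase cascade that restrains growth when cells are crowded or detached. NF2 (merlin) brings the LATS kinases to the membrane to be activated, and LATS1 and LATS2 then phosphorylate YAP1 and WWTR1, which keeps these coactivators in the cytoplasm. Unphosphorylated YAP1 and WWTR1 enter the nucleus, bind TEAD proteins and switch on genes such as CTGF and CYR61, which encode secreted matricellular proteins, and AMOTL2, a junctional protein that binds and holds back YAP1. SRC-family kinases can act on YAP1 and on LATS kinases in other cells. Much of this control is by phosphorylation and location, which RNA does not show. In these bulk RNA samples, fewer cells expressing a gene and less RNA per cell cannot be told apart.

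TEAD proteins recognise a core of letters GGAATG, or CATTCC on the other strand, and the promoters of members that hold it are shown because the target genes' response to Si306 is the tested result below. Of 35116 RefSeq promoter windows (GRCh38.p14, 250 bases before each transcript start), 11.9% held the core on either strand, 0.940% held it at least 2 times and 0.0826% at least 3 times. The table had windows for 7 of the 10 members, 11 windows in all, and 3 windows of 3 genes held the core. CTGF, listed there as CCN2, held 3 copies on the coding strand, 169, 104 and 95 bases before the start. AMOTL2 held 1 on the other strand, 69 bases before the start, and YAP1 held 1 on the coding strand, 162 bases before it. The letters were not in the window of LATS2 (chr13:21061587-21061836, minus strand). CYR61, TEAD1 and TEAD4 were not in the table. Capitals mark the core in each window, read 5′ to 3′ on the gene's strand, and a match is a description, not a bound site.
CTGF, chr6:131951373-131951622, minus strand: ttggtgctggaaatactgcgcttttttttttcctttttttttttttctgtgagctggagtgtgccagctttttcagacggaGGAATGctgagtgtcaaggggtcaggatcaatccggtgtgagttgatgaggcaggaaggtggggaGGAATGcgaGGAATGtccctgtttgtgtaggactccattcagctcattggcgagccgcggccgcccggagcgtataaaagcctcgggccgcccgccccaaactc
AMOTL2, chr3:134374448-134374697, minus strand: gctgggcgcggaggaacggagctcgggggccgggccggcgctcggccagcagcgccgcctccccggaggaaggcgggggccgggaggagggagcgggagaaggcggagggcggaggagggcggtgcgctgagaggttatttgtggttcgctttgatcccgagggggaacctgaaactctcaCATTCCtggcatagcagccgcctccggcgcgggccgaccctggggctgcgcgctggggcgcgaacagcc
YAP1, chr11:102110197-102110446, plus strand: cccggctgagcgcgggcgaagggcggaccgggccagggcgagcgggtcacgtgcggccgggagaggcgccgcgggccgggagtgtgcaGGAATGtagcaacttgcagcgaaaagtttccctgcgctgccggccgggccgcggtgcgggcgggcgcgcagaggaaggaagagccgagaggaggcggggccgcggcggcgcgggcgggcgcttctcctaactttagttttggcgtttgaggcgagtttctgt

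Among the upstream members, LATS2 read lower on every proton array and LATS1 and NF2 did not. LATS2, a serine/threonine kinase of the core cascade, is reported by a single probe on chromosome 13 at 20446786-20446845 (build hg17, minus strand). Its log2 ratio was -0.94 and -0.84 on the 2 Gy arrays and -0.99 and -0.99 on the 10 Gy arrays. The means were -0.89 (SE 0.04), 1.85-fold lower, and -0.99 (SE 0.04), 1.99-fold lower, and only 0.0957% and 0.139% of all probes read lower still. The LATS2 value was what chose these genes and gets no test. The size depended on normalisation, with -0.69 and -0.81 under median centring and -1.17 and -1.23 in the scanner's own ratios. With Si306 added, LATS2 read -0.02 and -0.10 at 2 Gy and 0.10 and 0.09 at 10 Gy.

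The means for LATS2 with Si306 were -0.06 (SE 0.04, limma adjusted p = 0.151) at 2 Gy and 0.09 (SE 0.04, limma adjusted p = 0.0484) at 10 Gy, the latter 0.34 under median centring. The second passed the threshold of 0.05, but 12 of 23 alternative settings lost it, with limma adjusted p from 9.35e-05 to 0.225, and under median centring the first turned to 0.25 (limma adjusted p = 0.000528). The difference between doses was 0.15 (95% interval 0.04 to 0.27, limma adjusted p = 0.0558), and it passed in 8 of 23 alternatives (limma adjusted p from 0.00521 to 0.256). LATS2 level was 1.28-fold higher on slide 2 than on slide 1, and its part in the difference between proton and Si306 values was not tested. The Cy3 channel gives a comparison of 2 Gy and 10 Gy RNA on slide 2 with untreated RNA on slide 1 in the same dye, in which LATS2 differed by -0.17 and -0.20 log2 units, against an SD of 1.14 over all probes. In it CTGF differed by 2.64 and 2.65 and NF2 probe 1 by -2.18 and -2.25, and slide and treatment cannot be told apart. The 30 bases of the LATS2 probe nearest its 5′ end are shown because this 1 probe carries the whole LATS2 reading.
LATS2 probe, hg17 chr13:20446816-20446845, minus strand: acttttgaaaacaggactcagcatcgcttt

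LATS1, the paralogue of LATS2, gave a dim signal. Its control channel was not well above background on any array of 2 Gy, 10 Gy or Si306 with 2 Gy and on 1 of 2 arrays of Si306 with 10 Gy. The log2 ratio was 0.17 and 0.12 at 2 Gy, 0.02 and -0.04 at 10 Gy, 0.06 and 0.15 with Si306 and 2 Gy, and 0.05 and 0.10 with Si306 and 10 Gy. The proton means were 0.15 and -0.01 (SE 0.04 each). With the background as a bound, LATS1 was at least 1.07-fold higher with Si306 and 2 Gy, where the limma adjusted p was 0.0301 and median centring turned the sign (-0.51). At 2 Gy the treated channel was above background on 1 of 2 arrays, and median centring turned that mean to -0.54. At Si306 with 10 Gy the mean was 0.08 (limma adjusted p = 0.0946). The array could place LATS1 little beyond its background.

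NF2, the tumour suppressor that lends the pathway its membrane scaffold, had 4 probes on chromosome 22 (hg17). The first, at 28419061-28419120, was bright and matched the transcript NM_181832. It read 0.21 and 0.18 at 2 Gy and 0.04 and 0.16 at 10 Gy, with means of 0.62 and 0.45 under median centring. With Si306, against irradiated RNA, it read -0.46 and -0.49 at 2 Gy and -0.41 and -0.46 at 10 Gy. Those means were -0.47 (SE 0.04, limma adjusted p = 1.00e-06), 1.39-fold lower but 0.06 under median centring, and -0.43 (SE 0.04, limma adjusted p = 2.36e-06), 1.35-fold lower. Under median centring the limma adjusted p were 0.242 and 0.220 (second mean -0.06), so neither fall passed under it. The difference between doses was 0.04 (95% interval -0.08 to 0.16, limma adjusted p = 0.645). The probe was 5.31-fold lower on slide 2 than on slide 1.

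The other 3 NF2 probes were dim. The second, at 28402014-28402073, read 0.18 at 2 Gy and 0.08 at 10 Gy (SE 0.03 each). The third spans 28381847-28385556 and the fourth 28385558-28388885, both far more than the 60 bases of a probe. At 2 Gy their control channel was not well above background. The third averaged 1.20-fold higher and the fourth, with the background as a bound, at least 1.30-fold higher (log2 means 0.26 and 0.41). Median centring turned both, to -0.17 and -0.11. At 10 Gy the fourth averaged 1.27-fold higher (log2 mean 0.35), turned to -0.03 by median centring. The third averaged 0.34, with control signal on 1 of 2 arrays, and 0.05 under median centring. On slide 2 none of these 3 probes was well above background in either channel, so their Si306 values are not read as a level of NF2, although the second passed the limma threshold there (adjusted p = 0.0109 at 2 Gy and 0.00822 at 10 Gy).

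**Figure D1:**
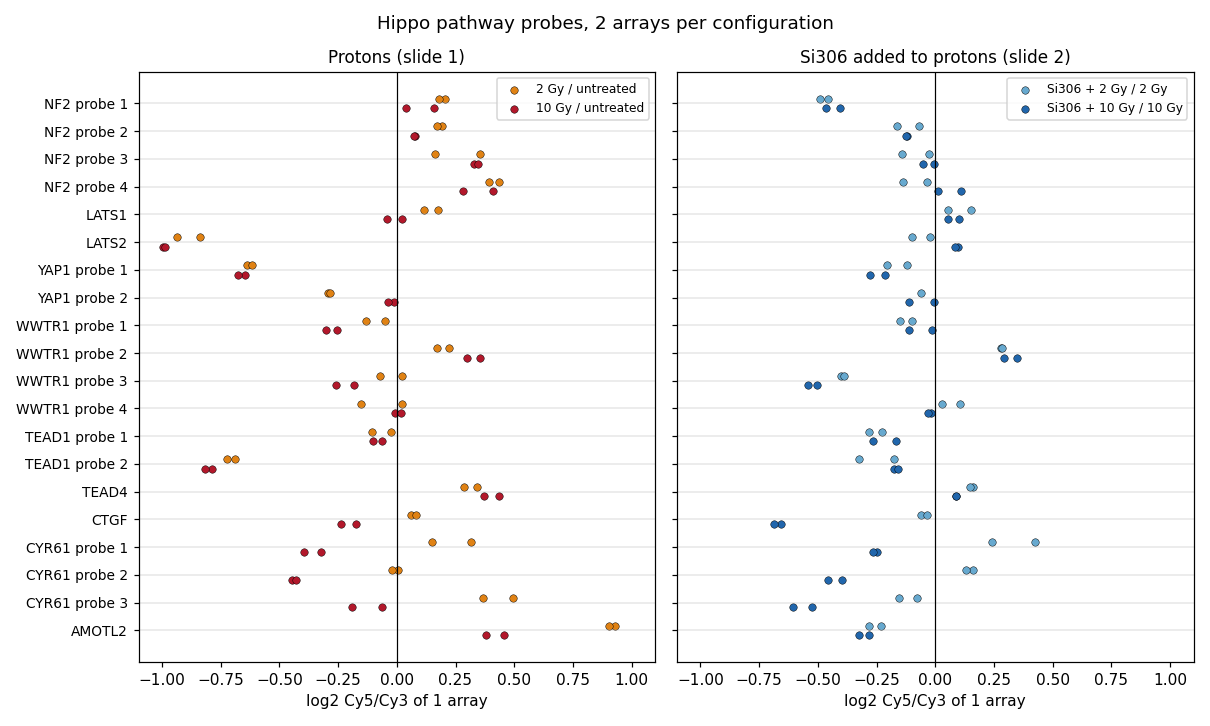
Log2 Cy5/Cy3 of all 20 probes on each array, protons against untreated at left (slide 1) and Si306 with protons against protons at right (slide 2); each point is 1 array, 2 per configuration. LATS2 lies between -0.99 and -0.84 on the proton arrays and between -0.10 and 0.10 on the Si306 arrays, and AMOTL2 lies highest at 2 Gy, at 0.93 and 0.90.

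The coactivators gave different answers from probe to probe. YAP1 had 2 probes on chromosome 11 (hg17), 2348 bases apart, at 101605794-101605853 and 101608142-101608201. The first read -0.64 and -0.62 at 2 Gy and -0.65 and -0.68 at 10 Gy, the lowest readings of any member after LATS2 and the second TEAD1 probe. Its means were -0.63 and -0.66 (SE 0.04 each), 1.55-fold and 1.58-fold lower, with -0.31 and -0.40 under median centring. The second YAP1 probe read -0.29 on both 2 Gy arrays but -0.01 and -0.04 at 10 Gy. The 2 probes shared a sign at 2 Gy, and their sizes differed by more than the spread of the arrays at both doses. In the Cy3 channel alone, the first probe was -0.60 and -0.64 for 2 Gy and 10 Gy RNA on slide 2 against untreated RNA on slide 1, and the second was 0.39 and 0.42 (SD over all probes 1.14). The 5′ 30 bases of each probe are shown because the pair disagree.
YAP1 probe 1, hg17 chr11:101605794-101605823, plus strand: agctttgagttctgacatccttaatgacat
YAP1 probe 2, hg17 chr11:101608142-101608171, plus strand: tgccagtagccacagattaagattatatct

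With Si306 the first YAP1 probe read -0.21 and -0.12 at 2 Gy and -0.28 and -0.21 at 10 Gy. It fell by a mean of 0.16 (SE 0.04, limma adjusted p = 0.00173) and 0.25 (SE 0.04, limma adjusted p = 0.000107) on the log2 scale, 1.12-fold and 1.19-fold lower, but read 0.27 and 0.06 under median centring. The difference between doses was -0.08 (95% interval -0.19 to 0.03, limma adjusted p = 0.266), and -0.21 under median centring (limma adjusted p = 0.0232). The second probe averaged -0.06 in both configurations, on 1 array at 2 Gy, since its spots on the other were left out (limma adjusted p = 0.323 and 0.200).

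WWTR1, the paralogue of YAP1, had 4 probes on chromosome 3 (hg17, minus strand), at 150719015-150719074, 150721291-150721350, 150719440-150719499 and 150720995-150721054. At 2 Gy their means were -0.09, 0.20, -0.03 and -0.07, and at 10 Gy -0.28, 0.33, -0.22 and 0.01 (SE 0.03 to 0.04). Median centring turned the first to 0.07 at 2 Gy and the fourth to -0.27 at 10 Gy. The second read higher on all 8 arrays, between 0.17 and 0.35. With Si306 that probe rose by 0.28 (limma adjusted p = 2.42e-05) at 2 Gy and by 0.32 (limma adjusted p = 1.06e-05) at 10 Gy, 1.22-fold and 1.25-fold, with 0.66 and 0.60 under median centring. The third moved the opposite way, at -0.40 and -0.39, then -0.54 and -0.51 on the arrays. It fell by 0.39 (1.31-fold, limma adjusted p = 3.25e-06) and 0.52 (1.44-fold, limma adjusted p = 4.73e-07), and under median centring it was -0.09 (limma adjusted p = 0.131) and -0.30 (limma adjusted p = 0.000559). The first fell at 2 Gy by 0.13 (limma adjusted p = 0.0120), with 0.41 under median centring. It averaged -0.06 at 10 Gy (limma adjusted p = 0.172), and its difference between doses was 0.06 (limma adjusted p = 0.428). The fourth averaged 0.07 and -0.02 (limma adjusted p = 0.184 and 0.648). No single direction can be given for WWTR1 from these probes, and their levels were 6.40-fold, 3.47-fold, 3.86-fold and 1.51-fold higher on slide 2 than on slide 1.

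**Figure D2:**
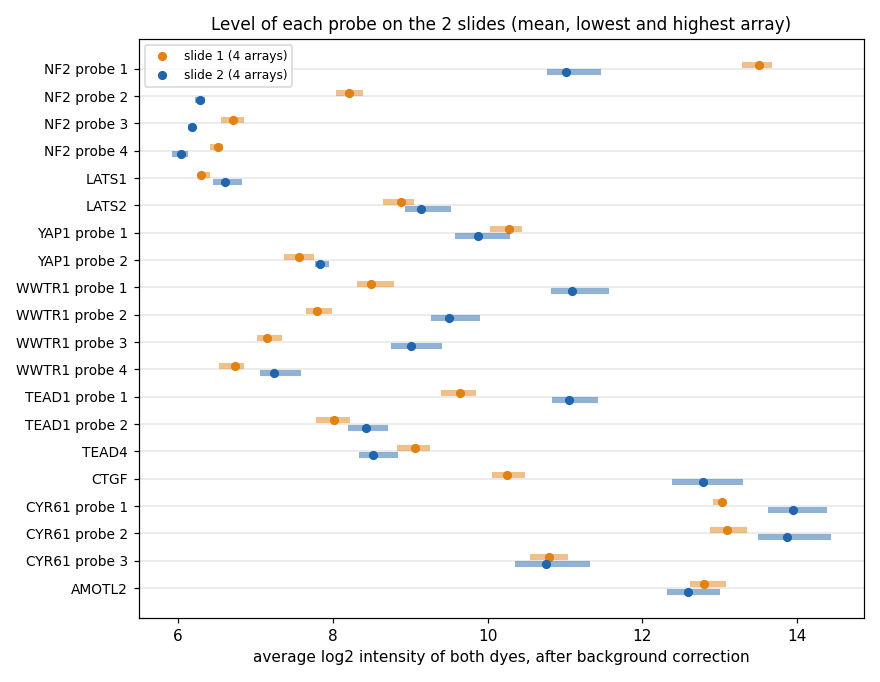
Average log2 intensity of both dyes for each probe (x axis), with the mean as a point and the range of the 4 arrays of a slide as a bar; orange is slide 1 (protons) and blue slide 2 (Si306). CTGF ranges from 10.1 to 10.5 on slide 1 and from 12.4 to 13.3 on slide 2, and NF2 probe 1 from 13.3 to 13.7 and from 10.8 to 11.5.

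The TEAD factors, which carry YAP1 and WWTR1 to DNA, differed from each other. TEAD1 had 2 probes on chromosome 11 (hg17), 13501 bases apart, at 12921801-12921860 and 12908300-12908359. The second read -0.69 and -0.73 at 2 Gy and -0.79 and -0.82 at 10 Gy, with means of -0.71 and -0.80 (SE 0.04 each), 1.63-fold and 1.74-fold lower. In the Cy3 channel alone, 2 Gy and 10 Gy RNA on slide 2 read the other way against untreated RNA on slide 1, at 0.18 and 0.25 (SD over all probes 1.14). The first, farther along the gene, read between -0.11 and -0.02 on the same 4 arrays, with means that median centring turned to 0.20 and 0.15. The 2 probes of TEAD1 thus did not overlap on any proton array, although both are annotated to the transcript NM_021961. The 5′ 30 bases of each are shown for the same reason as those of YAP1.
TEAD1 probe 1, hg17 chr11:12921801-12921830, plus strand: ttttttctccttcccctttctttaagagag
TEAD1 probe 2, hg17 chr11:12908300-12908329, plus strand: gagtatgcaaggtttgagaatggccgattt

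With Si306 both TEAD1 probes read lower on all 4 arrays, from -0.32 to -0.16. The first fell by 0.26 (limma adjusted p = 0.000117) at 2 Gy and 0.22 (limma adjusted p = 0.000451) at 10 Gy, but read 0.28 and 0.16 under median centring. The second fell by 0.25 (limma adjusted p = 0.000185) and 0.17 (limma adjusted p = 0.00321), and under median centring was -0.09 (limma adjusted p = 0.0830) and -0.01 (limma adjusted p = 0.917). TEAD4, on chromosome 12 at 3019652-3019816 (hg17), read higher on all 8 arrays. TEAD4 read 0.29 and 0.34 at 2 Gy, 0.43 and 0.37 at 10 Gy, 0.16 and 0.15 with Si306 and 2 Gy, and 0.09 on both arrays of Si306 and 10 Gy. The proton means were 0.31 and 0.40 (SE 0.03 each), 1.24-fold and 1.32-fold higher, with 0.53 and 0.60 under median centring. In the Cy3 channel alone the slide 2 RNA of both doses read -0.42 and -0.35 against untreated RNA on slide 1 (SD over all probes 1.14). With Si306 it rose by 0.16 (limma adjusted p = 0.00171) at 2 Gy, a call that 1 of 23 alternatives lost (limma adjusted p = 0.05004), and by 0.09 (limma adjusted p = 0.0377) at 10 Gy, a call that 9 of 23 alternative settings lost, with 0.34 and 0.26 under median centring.

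Of the target genes, CTGF and CYR61 had lower log2 ratios at 10 Gy than at 2 Gy, with protons alone on slide 1 and with Si306 on slide 2. CTGF, on chromosome 6 at 132311823-132311882 (hg17, minus strand), read 0.06 and 0.08 at 2 Gy and -0.17 and -0.24 at 10 Gy. The proton means were 0.07 and -0.21 (SE 0.03 each), the second 1.15-fold lower and turned to 0.05 by median centring. With Si306 and 2 Gy the CTGF arrays read -0.06 and -0.03, and with Si306 and 10 Gy -0.66 and -0.69, so only the second stood clear of 0. The means were -0.05 (SE 0.03, limma adjusted p = 0.229), which became 0.67 (limma adjusted p = 2.84e-07) under median centring, and -0.67 (SE 0.03, limma adjusted p = 4.70e-08), 1.60-fold lower. The fall at 10 Gy kept its call in all 23 alternative settings, between -0.69 and -0.21. The -0.21 is relative to the median of all tested probes, and before that median was taken off the median-centred value was 0.000892.

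CYR61 had 3 probes on chromosome 1 (hg17), at 85761192-85761251, 85760974-85761033 and 85760465-85760524. At 2 Gy they read 0.15 and 0.31, 0.00 and -0.02, and 0.49 and 0.37. At 10 Gy they read -0.39 and -0.32, -0.45 and -0.43, and -0.06 and -0.19, so every probe averaged lower at 10 Gy than at 2 Gy. The means were 0.23, -0.01 and 0.43 at 2 Gy and -0.36, -0.44 and -0.13 at 10 Gy (SE 0.03 to 0.05), with 0.65, 0.41 and 0.77, then -0.02, -0.10 and 0.15 under median centring. With Si306 the same order of the doses appeared. At 2 Gy the arrays read 0.43 and 0.24, 0.16 and 0.13, and -0.08 and -0.16, and at 10 Gy -0.25 and -0.27, -0.45 and -0.40, and -0.53 and -0.61.

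In the Si306 fit at 2 Gy, CYR61 probes 1 and 2 rose by 0.33 (limma adjusted p = 0.000133) and 0.15 (limma adjusted p = 0.00215), 1.18 and 0.99 under median centring and lost as calls when the discordant scans were placed by label (limma adjusted p = 0.0927 and 0.273), while probe 3 fell by 0.12 (limma adjusted p = 0.0379), a call that 8 of 22 alternatives lost and that median centring turned to 0.40. At 10 Gy all 3 fell, by 0.26 (limma adjusted p = 0.000955), 0.43 (limma adjusted p = 9.21e-07) and 0.57 (limma adjusted p = 1.16e-06), with 0.30, 0.12 and -0.21 under median centring, and with the discordant scans placed by label the limma adjusted p of probe 1 was 0.194. These folds were 1.20, 1.34 and 1.48 times lower. Levels of CYR61 were 2.01-fold, 1.81-fold and 1.04-fold higher on slide 2, and that of CTGF 6.15-fold higher.

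The difference of the Si306 effect between 10 Gy and 2 Gy was tested directly within slide 2, where a dye effect of a probe cancels. An effect of array position does not cancel, since position went with dose on both slides. CTGF differed by -0.63 (SE 0.05, 95% interval -0.73 to -0.52, limma adjusted p = 1.11e-05). The 3 CYR61 probes differed by -0.59 (SE 0.07, limma adjusted p = 0.000299), -0.57 (SE 0.05, limma adjusted p = 1.99e-05) and -0.45 (SE 0.06, limma adjusted p = 0.000839). These were the 4 member probes that passed, all lower, of 20 probes, where 21.2% of all probes passed (9.38% higher and 11.9% lower). The count thus lay near the share of all probes, and 3 of the 4 report CYR61. At the brightest probe, 2 of 10 genes passed against 22.0% of gene names. At an unadjusted p under 0.05 there were 2 higher and 5 lower. Under median centring the 4 differences were -0.88, -0.88, -0.87 and -0.62, and the passing members numbered 4 higher and 7 lower. The CTGF call held in all 23 alternatives and that of CYR61 probe 2 in all 22. CYR61 probes 1 and 3 lost theirs when the discordant scans were placed by label (limma adjusted p = 0.135 and 0.214), with their differences unchanged. For the other member probes the difference did not pass. Apart from the dim NF2 probes 2 to 4, their 95% intervals reached at most 0.27 above 0 (LATS2) and -0.24 below it (WWTR1 probe 3).

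AMOTL2, on chromosome 3 at 135557440-135557499 (hg17, minus strand), was the member that read highest after protons. It read 0.93 and 0.90 at 2 Gy and 0.38 and 0.45 at 10 Gy, so on slide 1 the low dose was the higher. The means were 0.92, 1.89-fold higher, and 0.42, 1.33-fold higher (SE 0.03 each), with 1.32 and 0.74 under median centring, and 99.2% of all probes read lower at 2 Gy. With Si306 it read -0.28 and -0.23 at 2 Gy and -0.28 and -0.32 at 10 Gy. It fell by 0.26 (limma adjusted p = 6.36e-05) and 0.30 (limma adjusted p = 2.00e-05), 1.19-fold and 1.23-fold lower, but read 0.42 and 0.16 under median centring. With the discordant scans placed by label the falls stayed at 0.26 and 0.30, and the limma adjusted p were 0.104 and 0.0644. The difference between doses was -0.05 (95% interval -0.15 to 0.06, limma adjusted p = 0.539), and -0.26 under median centring (limma adjusted p = 0.00529). The RNA labelled 2 Gy and 10 Gy alone was also on slide 2, in the Cy3 channel, where its levels did not show the order of the doses seen on slide 1. The mean log2 level at 2 Gy and 10 Gy was 12.70 and 12.68 for AMOTL2, 12.93 and 12.94 for CTGF, and 13.89 and 13.93, 13.95 and 13.89, and 10.94 and 10.90 for CYR61 probes 1 to 3 (n = 2 arrays each). The arrays of both doses overlapped for all 5 probes.

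**Figure D3:**
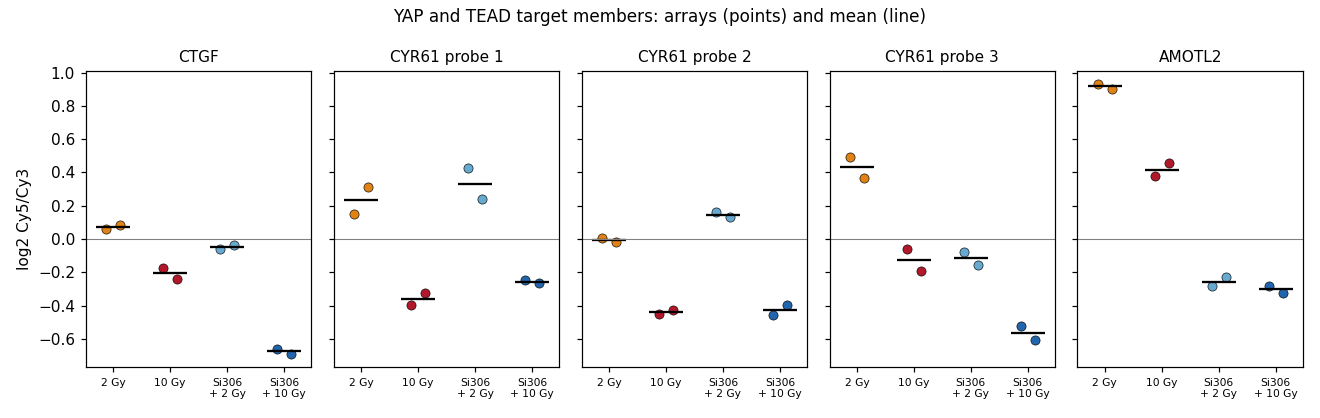
Log2 Cy5/Cy3 of CTGF, the 3 CYR61 probes and AMOTL2 in the 4 configurations; points are arrays and lines their mean. CTGF and CYR61 lie lower at 10 Gy than at 2 Gy both with protons alone (slide 1) and with Si306 added (slide 2), while AMOTL2 with Si306 lies at -0.26 and -0.30.

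Over all 20 probes, the share that passed in either direction lay near the background of the array, while more probes were lower and fewer higher with Si306 than over all probes, a split that median centring did not keep. The counts include NF2 probe 2, which was not above background on slide 2. With Si306 and 2 Gy, 14 passed (5 higher, 9 lower) where 65.0% of all probes did (36.3% higher and 28.6% lower). With Si306 and 10 Gy, 14 passed (3 higher, 11 lower) where 61.0% of all probes did (33.1% higher and 27.9% lower). Median centring turned these splits to 11 higher and 5 lower, and 8 and 8. For protons, an adjusted p under 0.05 was found for 14 of 20 probes (10 higher, 4 lower) at 2 Gy, beside 57.4% of all probes (32.2% higher, 25.2% lower), and 15 (6 higher, 9 lower) at 10 Gy, beside 58.3% (31.5% higher, 26.9% lower). LATS2 chose the group by its proton value, so nothing is read from these counts. No member reached a 2-fold change in any configuration with loess and a background offset of 50, while 0.690%, 0.917%, 0.654% and 0.343% of all probes did. The median log2 ratio of the members was 0.11, -0.05, -0.09 and -0.15 in the 4 configurations, against 0.02, 0.01, 0.03 and 0.02 for all probes. Other settings took some members past 2-fold, such as AMOTL2 at 2 Gy (1.32 under median centring) and LATS2 in the scanner's own ratios.

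**Figure D4:**
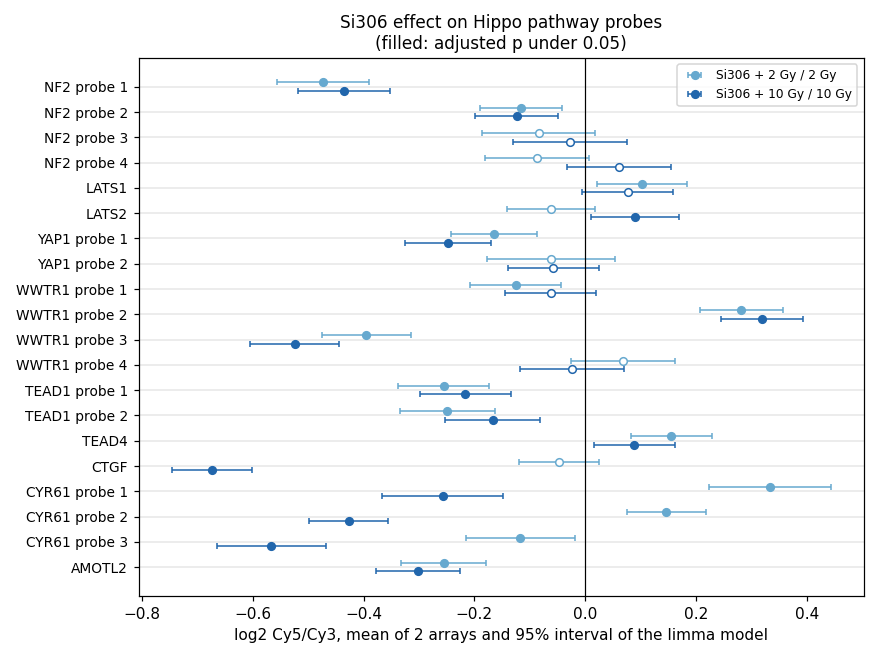
Si306 effect on each probe as mean log2 Cy5/Cy3 of 2 arrays with the 95% interval of the limma model (x axis), for Si306 with 2 Gy (light) and with 10 Gy (dark); filled points passed an adjusted p of 0.05. CTGF lies at -0.05 and -0.67 and the CYR61 probes are also lower at 10 Gy, while median centring moves several points, such as AMOTL2, above 0.

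Beyond the members, 32 other Hippo regulators were listed, of which 30 names were on the array and 27 were tested at their brightest probe. With protons, as a description, 18 (10 higher, 8 lower) had an adjusted p under 0.05 at 2 Gy and 17 (8 higher, 9 lower) at 10 Gy, beside 57.0% (32.1% higher, 24.9% lower) and 57.4% (31.1% higher, 26.3% lower) of all gene names. Under median centring the splits were 18 higher and 4 lower, and 17 and 4. The values at 2 Gy were 0.64 for VGLL3, a TEAD cofactor, 0.38 for the polarity scaffold SCRIB, -0.27 for JUB, a LIM-domain protein that binds LATS kinases (0.03 under median centring), and -0.43 for the kinase MAP4K4 (-0.05 under median centring). At 10 Gy they were 0.36 for VGLL3, 0.36 for SCRIB, -0.30 for WWC2, a relative of the NF2 partner KIBRA (-0.11 under median centring), and -0.40 for STK3, the MST2 kinase upstream of LATS. Under median centring VGLL3 read 0.92 at 2 Gy and 0.60 at 10 Gy, SCRIB 0.81 and 0.72, and STK3 -0.37 at 10 Gy. A second VGLL3 probe read -0.22 and -0.35, a second WWC2 probe 0.18 at 10 Gy, and a further MAP4K4 probe 0.29 at 2 Gy.

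With Si306, 20 of the 27 regulators passed at 2 Gy (9 higher, 11 lower; 74.1% against 66.2% of gene names, 38.4% higher and 27.8% lower) and 19 at 10 Gy (10 higher, 9 lower; 70.4% against 62.0%, 35.0% higher and 27.0% lower), and median centring moved the splits to 17 and 6, and 19 and 5. RASSF1, a scaffold of the MST kinases, rose by 0.50 (limma adjusted p = 3.37e-07) and 0.66 (limma adjusted p = 6.14e-08), although its second probe fell by 0.37 and 0.21. MOBKL1A, the LATS coactivator MOB1B, rose by 0.39 (limma adjusted p = 1.06e-06) and 0.50 (limma adjusted p = 2.36e-07). Under median centring RASSF1 read 1.02 and 1.04 and MOBKL1A 0.82 and 0.81. SCRIB fell by 0.69 (limma adjusted p = 2.60e-08) and 0.56 (limma adjusted p = 1.54e-07), but read 0.06 and -0.04 under median centring. TAOK3 fell at 2 Gy by 0.37 (limma adjusted p = 1.64e-05, 0.28 under median centring) and STK3 at 10 Gy by 0.28 (limma adjusted p = 0.000137). The regulator medians were -0.01 and 0.06 against 0.04 and 0.03 for all gene names. In the difference between doses, 7 passed (5 higher, 2 lower; 25.9% against 22.0%), with 5 and 5 under median centring.

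Of 18 other YAP and TEAD targets, 17 were tested. With protons, as a description, 13 (3 higher, 10 lower) had an adjusted p under 0.05 at 2 Gy and 15 (4 higher, 11 lower) at 10 Gy, 76.5% and 88.2% of the list beside 57.0% and 57.4% of gene names, which median centring turned to 8 higher and 5 lower, and 6 and 8. Their median was -0.18 at both doses, against 0.02 for all gene names. At 2 Gy the receptor kinase AXL read 0.54 and CRIM1 0.45, while IGFBP3, a growth factor binding protein, read -0.40 (0.08 under median centring) and FJX1 -0.57 (-0.13 under median centring). At 10 Gy AXL read 0.73, the stress gene GADD45A 0.22, the RNA-binding RBMS3 -0.65 and ANKRD1, a classic YAP target, -0.69. Under median centring AXL and CRIM1 read 0.93 and 0.73 at 2 Gy. At 10 Gy it gave 1.06 for AXL, 0.58 for GADD45A, -0.47 for RBMS3 and -0.76 for ANKRD1, which was as low as -1.17 in another setting. At 2 Gy a second probe of CRIM1 read -0.04 and a second probe of IGFBP3 0.08, and at 10 Gy the other 2 RBMS3 probes read -0.01 and -0.23.

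With Si306, 14 of the 17 targets passed at 2 Gy (7 higher, 7 lower; 82.4% against 66.2%), with 12 and 2 under median centring, and 9 at 10 Gy (3 higher, 6 lower; 52.9% against 62.0%), with 11 and 5. AXL fell by 0.54 (limma adjusted p = 2.57e-07) at 2 Gy and 0.74 (limma adjusted p = 4.62e-08) at 10 Gy, but read 0.20 and -0.24 under median centring. CRIM1 fell by 0.60 (limma adjusted p = 1.60e-07) and 0.73 (limma adjusted p = 5.90e-08), although its second probe rose by 0.22 and 0.10. IGFBP3 rose by 0.57 at 2 Gy (limma adjusted p = 7.00e-08), CCDC80 by 0.26 (limma adjusted p = 8.53e-05) at 2 Gy and 0.18 (limma adjusted p = 0.00119) at 10 Gy, and RBMS3 by 0.28 (limma adjusted p = 0.000317) at 10 Gy. Under median centring IGFBP3 read 1.21 at 2 Gy, CCDC80 0.74 and 0.52, RBMS3 0.67 at 10 Gy, and CRIM1 -0.44 and -0.58. A second CCDC80 probe averaged -0.10 and -0.01, and the other 2 RBMS3 probes averaged 0.12 and -0.11 at 10 Gy.

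In the difference of the Si306 effect between doses, 6 of the 17 other targets passed, 0 higher and 6 lower (35.3% against 22.0% of gene names, 9.82% higher and 12.2% lower). At an unadjusted p under 0.05 there were 0 higher and 8 lower by limma, the scanner ratios gave 0 and 4, and median centring 0 and 10. The 6 were IGFBP3 (-0.51), the tissue factor gene F3 (-0.26), FJX1 (-0.22), AXL (-0.19), PTPN14 (-0.17), a phosphatase that binds YAP1, and DDEF1 (-0.16), named here after their values were seen. The limma adjusted p was 3.58e-05 for IGFBP3 and 0.00695 for F3. The list median was -0.11 against -0.01 for all gene names.

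**Figure D5:**
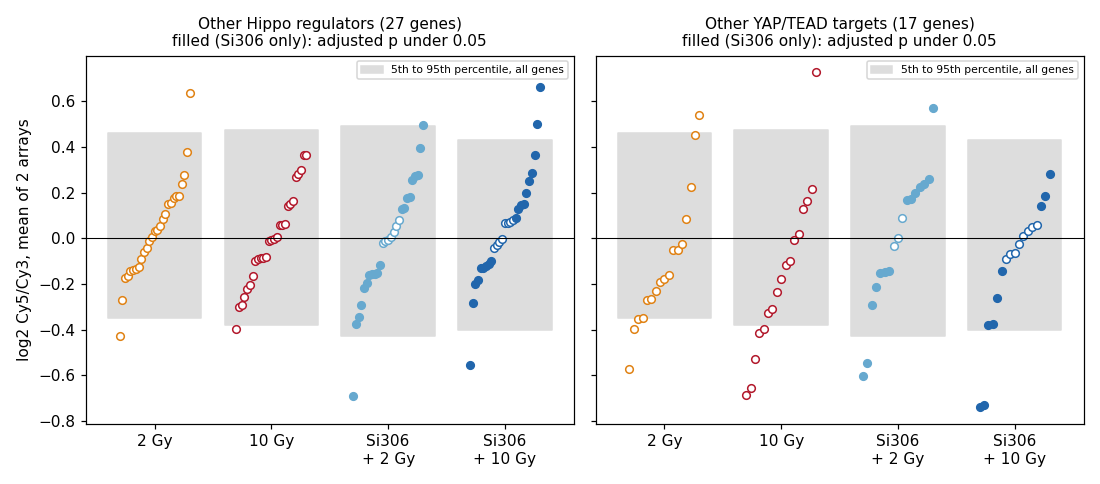
Mean log2 Cy5/Cy3 of 2 arrays for 27 other regulators (left) and 17 other targets (right), sorted within each configuration; filled points, shown for Si306 only, passed an adjusted p of 0.05 and grey bars span the 5th to 95th percentile of all gene names. Under median centring more points of both lists lie above 0, such as 12 higher and 2 lower targets with Si306 and 2 Gy.

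The gene names nearest to LATS2, by Euclidean distance of the log2 ratio over the 8 arrays among 21206 names, were ZNF587 (0.218), SMS (0.296), CRI1 (0.317), THC2373072 (0.339) and TMEM71 (0.393). ZNF587 read -0.91 and -0.80 at 2 Gy and -0.88 and -0.85 at 10 Gy, then -0.09, -0.14, 0.06 and 0.01 with Si306. SMS, the spermine synthase gene, read between -1.07 and -0.78 after protons and between -0.10 and -0.03 with Si306. The correlations with LATS2 were 0.982 to 0.997 over the 8 arrays, and the proton and Si306 arrays were on different slides. These names were found by likeness to LATS2, so their pattern is a description.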

How the data were processed

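Human genome-wide Agilent arrays were hybridised with Cy5-labelled treated and Cy3-labelled control RNA of U87 MG cells and scanned with Agilent Feature Extraction 9.5.3.1. The authors deposited the scanner's spot signals as linear intensity for each dye and a table of log10 Cy5/Cy3 ratio values for the series, which matched the scanner's LogRatio within 0.005 and were used only as an alternative. The scanner text was deposited with comma decimals. The number of arrays limits the precision. Signals were background-corrected (normexp, offset 50), loess-normalised within each scan, averaged over spots of a probe and scans of an array, and fitted with limma 3.58.1 (R 4.3.3, data.table version 1.17.8, statmod 1.5.0) across all configurations, each mean against 0, with Benjamini-Hochberg adjustment over all probes (threshold 0.05). Probes were kept if either channel was well above background on a share of at least 2 / 3 of the arrays of any configuration. Replicates were the 2 arrays of a configuration, since 24 scans came from 8 arrays, and 2 scans lying on an array of the other dose were dropped. The fit was tested on simulated data. The members and lists were chosen with earlier results of these data known. Named were all member probes, the 2 largest rises and falls of each list per configuration, and the 5 names nearest to LATS2. There were 23 alternatives, of which 22 were planned and 1, without both arrays that hold a discordant scan, was chosen after seeing the data. Probe coordinates are the scanner files' (hg17), and promoters are RefSeq's (GRCh38.p14). Exon and intron annotation of the probes was not used here.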

Additional observations from a re-analysis of the deposited data

Results flagged for a closer look

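The Si306 effect differed between 10 Gy and 2 Gy by -0.63 for CTGF on the log2 scale and by -0.59, -0.57 and -0.45 for CYR61 probes 1, 2 and 3, with limma adjusted p of 1.11e-05, 0.000299, 1.99e-05 and 0.000839 in the test of the difference itself. Both arrays of each dose showed that order, which was not compared with all probes, and array position went with dose. The 4 probes that passed, of 20, lay near the 21.2% of all probes that did, and 3 of the 4 report CYR61.

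For protons alone, both 2 Gy arrays of CTGF and of CYR61 probes 1 and 3 were above 0 and both 10 Gy arrays below it, a difference of -0.28, -0.59 and -0.56. In the Cy3 channel of slide 2, RNA of the same labels gave log2 levels at 2 Gy and 10 Gy of 12.93 and 12.94 for CTGF, 13.89 and 13.93 for CYR61 probe 1 and 10.94 and 10.90 for CYR61 probe 3, with overlapping arrays. The slide 1 difference was not tested, because the proton values chose the genes, and the signs at 10 Gy turned for CTGF and CYR61 probe 3 under median centring.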

How the results depend on the processing

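Signs turned mostly under another scaling. Centring each scan on its median in place of loess shifted the median of all tested probes by 0.24, 0.21, 0.36 and 0.21 log2 units (2 Gy, 10 Gy, Si306 with 2 Gy, Si306 with 10 Gy), and the values below are relative to that median; the cause was not tested. At 2 Gy this turned NF2 probe 3 to -0.17, NF2 probe 4 to -0.11 and LATS1 to -0.54, WWTR1 probe 1 to 0.07, TEAD1 probe 1 to 0.20 and CYR61 probe 2 to 0.41, and at 10 Gy WWTR1 probe 4 to -0.27, TEAD1 probe 1 to 0.15, NF2 probe 4 to -0.034, CTGF to 0.0505 and CYR61 probe 3 to 0.15 (0.0601 with the discordant scans under their label, which also turned CTGF at 2 Gy to -0.035). With Si306 and 2 Gy it turned NF2 probe 1 to 0.0591, LATS1 to -0.51, LATS2 to 0.25, YAP1 probe 1 to 0.27, WWTR1 probes 1 and 4 to 0.41 and -0.16, TEAD1 probe 1 to 0.28, CTGF to 0.67, CYR61 probe 3 to 0.40 and AMOTL2 to 0.42. With Si306 and 10 Gy it turned NF2 probe 4 to -0.57, LATS1 to -0.28, YAP1 probe 1 to 0.0599, WWTR1 probe 1 to 0.31, TEAD1 probe 1 to 0.16, CYR61 probes 1 and 2 to 0.30 and 0.12 and AMOTL2 to 0.16. In the difference between doses it turned NF2 probe 2 to 0.46 and LATS1 to 0.22. Members that passed the limma threshold under neither normalisation are not listed for Si306. LATS2 was -0.69 and -0.81 under it at 2 Gy and 10 Gy, -1.17 and -1.23 in both the scanner ratios and the series table, and -0.98 and -1.09 with an offset of 16. The scanner ratios moved the dim probes the other way, NF2 probe 4 to 2.39 and 1.42 and NF2 probe 3 to 1.00 and 0.96 at 2 Gy and 10 Gy, and LATS1 at 2 Gy to 0.98. NF2 probes 2 to 4 were not above background on the Si306 arrays.

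Member counts passing were 8 and 8 for Si306 with 2 Gy and 10 Gy and 2 for the dose difference at the brightest probe of each gene (fewer probes), 8 and 2 for Si306 with 2 Gy and the difference with discordant scans under their label, and 11 for the difference under median centring. Apart from the smaller number of probes, the cause was not tested. Single calls with Si306 and 2 Gy were also lost for LATS1 and WWTR1 probe 1 with discordant scans under their label (limma adjusted p = 0.121 and 0.0618), for both without array 2 of that configuration (limma adjusted p = 0.381 and 0.143) and for YAP1 probe 1 without array 1 (limma adjusted p = 0.0603). Regulators passing were 11 at 2 Gy without both arrays that hold a discordant scan and 11 at Si306 with 10 Gy with discordant scans under their label, and targets 16 at Si306 with 10 Gy under median centring. Leaving out 1 array gave 10 to 14, 11 to 14 and 4 to 5 members for Si306 with 2 Gy, with 10 Gy and the difference, 11 to 18 and 12 to 19 regulators at 2 Gy and Si306 with 10 Gy, and LATS2 from -0.94 to -0.84 at 2 Gy and -0.99 at 10 Gy.

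Labels number the replicates alike, but same-numbered scans did not deviate together (30 pairs, r from -0.09 to 0.09), so the numbers pair nothing. With scans as samples and a replicate block, LATS2 was -0.89 and -0.99, and the limma adjusted p of its Si306 difference between doses was 0.00521. With the block 15, 14 and 6 members passed for Si306 with 2 Gy, with 10 Gy and the difference, against 14, 14 and 4 without it. LATS1 with Si306 and 2 Gy no longer passed (limma adjusted p = 0.0623), while LATS2 and CTGF with Si306 and 2 Gy did (limma adjusted p = 0.0490 and 0.0402), as did the difference between doses of LATS2 and of WWTR1 probe 3 (limma adjusted p = 0.0292 for the latter). Over the counts and the LATS2 proton values, 280 comparisons with an alternative stayed within 1.5 times the count or 1 SD of the value and 19 moved, where a total count says nothing of direction. Dim probes (LATS1 and NF2 probes 2 to 4) were limited by signal over background.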
